A study of Mus musculus and Homo sapiens
Mus musculus with 12 samples.

Results

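The phosphodiesterases of cyclic nucleotide signalling were described across kinds of nuclei and across libraries of mouse brain. The genes were chosen by symbol from a list of 10, namely Pde10a, Pde1a, Pde1b, Pde1c, Pde2a, Pde4a, Pde4b, Pde4d, Pde7b and Pde8b. Of these, 9 had a row among the 34496 genes of the brain count tables, and Pde2a was not analysed here. The study tested a droplet method for total RNA of single nuclei (snHH-seq), which primes reverse transcription with random primers. Its 7 brain libraries came from wild-type C57BL/6J male mice of 6 to 8 weeks. They fell into 4 groups, with 2 libraries of frozen brain without preindex (No_index_frozen), 2 of frozen brain with preindex (Index_frozen), 2 of fresh brain without preindex (No_index_fresh) and 1 of fresh brain with preindex (Index_fresh). A preindex is a well-specific barcode that the reverse transcription primer adds to a nucleus before it enters a droplet. Titles and treatment labels named opposite primers in 4 of the 7 cases. Groups follow the titles, and barcode lengths went with the titles, at 40 bases in the 3 libraries called Index and 30 bases in the 4 called No_index. No source used here states that libraries came from separate animals, so p-values measure the spread between libraries, which may be technical.

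Cyclic AMP and cyclic GMP are second messengers made by cyclases in response to transmitters and hormones. Phosphodiesterases hydrolyse them, and the families differ in which nucleotide they degrade and in what regulates them. The Pde1 family is switched on by calcium and calmodulin, Pde4, Pde7 and Pde8 enzymes prefer cyclic AMP, and Pde10a hydrolyses both nucleotides and is known as an enzyme of striatal medium spiny neurons, where dopamine raises cyclic AMP through D1 receptors and lowers it through D2 receptors.

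The tables held 11198 nuclei, with 700 to 3100 nuclei and 8605214 to 42439731 UFIs per library (a UFI is the molecular tag that the study counts). Median UFIs per nucleus lay between 9011.5 and 27543. Barcodes shared by 2 libraries numbered 0 to 10 per pair and occurred in 7 of 21 pairs. Nuclei were clustered without any phosphodiesterase gene, and clusters were named from marker genes. Kidney-rich nuclei occurred only in the 2 Index_frozen libraries, liver-rich nuclei only in the Index_fresh library, and cerebellar granule-like nuclei in none of the 3 preindexed libraries. The named kinds included 1433 striatal-like nuclei, 3195 cortical excitatory-like, 1023 interneuron-like, 363 thalamic-like, 416 dentate granule-like, 275 oligodendrocyte-like, 113 astrocyte-like and 483 kidney-rich nuclei, and 3642 nuclei stayed unnamed. The summed striatal markers ranged from 6701 to 7918 CPM in striatal-like nuclei and from 674 to 762 CPM in cortical excitatory-like nuclei. The 12 cortical excitatory markers separated less, at 2239 to 2565 CPM in cortical excitatory-like nuclei, 1430 to 1571 in striatal-like, 1693 to 1968 in thalamic-like and 1306 to 2296 in astrocyte-like nuclei. CPM give a gene's part of all UFIs of the nuclei of that kind in that library, on the usual CPM scale. Levels are means over libraries with at least 10 nuclei of the kind. Rankings cover the named kinds only, and the 3642 unnamed nuclei, many of them in neuron-like clusters, were not ranked.

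Of the named kinds, striatal-like nuclei held the highest levels of Pde10a, Pde7b and Pde1b. For each of these genes the lowest striatal library lay above every library of the next kind. How many of all genes were highest in a named kind without overlap was not counted. Pde10a, the dual cyclic AMP and cyclic GMP enzyme, stood at 4957 and 5281 CPM in the No_index_frozen libraries, 6132 and 6054 in Index_frozen, 5656 and 5152 in No_index_fresh and 6276 in Index_fresh. All 7 values lay above those of cortical excitatory-like nuclei, where 6 libraries held 1145 to 1444 CPM and the Index_fresh library 2292. The mean was 5644 ± 525 CPM (SD, n = 7) against 1426 ± 395, a 3.96-fold ratio of means. The next kind was cerebellar granule-like nuclei at 2079 ± 356 CPM (n = 4), followed by thalamic-like nuclei at 1516 ± 342 and cortical excitatory-like nuclei, and these 3 neighbours overlapped. Striatal-like nuclei were 12.8% of all nuclei and held 36.5% of the Pde10a UFIs.

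**Figure D1:**
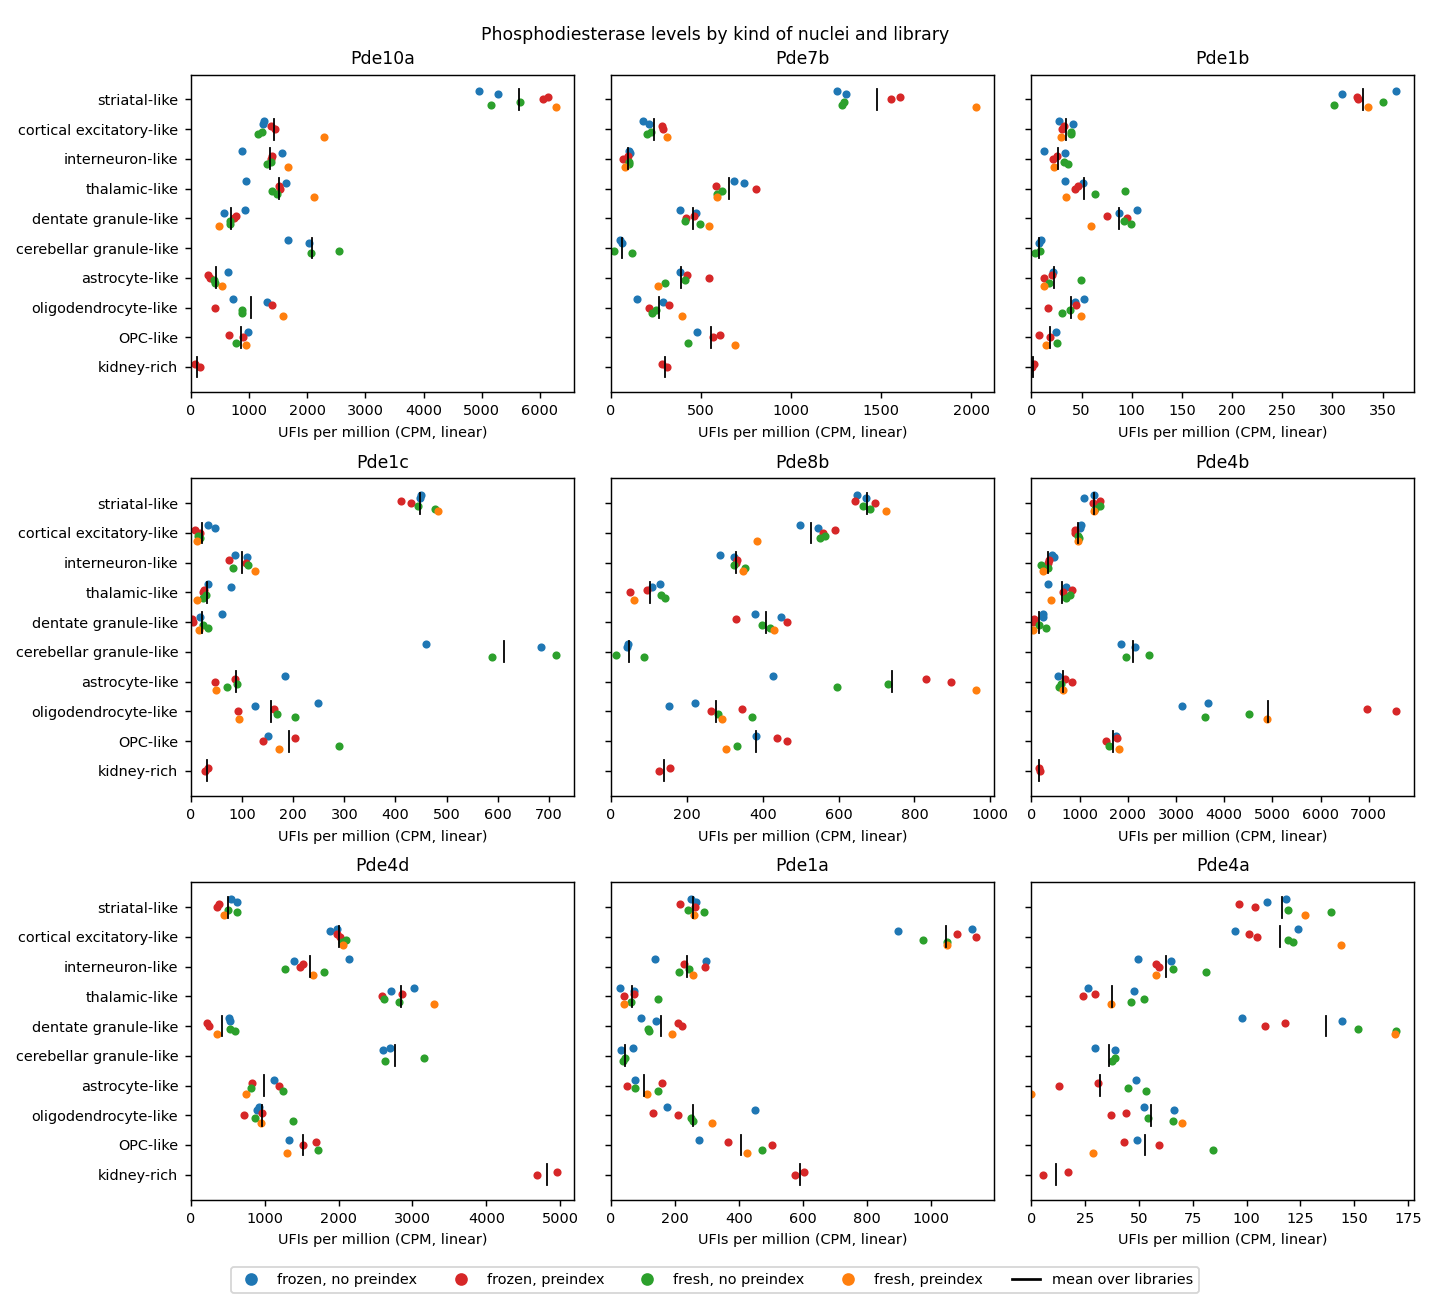
Level of each phosphodiesterase (CPM, linear axis with its own scale in each panel) by kind of nuclei, with 1 point per library with at least 10 nuclei of that kind, coloured by group, and a black line at the mean. Striatal-like nuclei lie apart at the right for Pde10a, Pde7b and Pde1b, oligodendrocyte-like nuclei for Pde4b, kidney-rich nuclei for Pde4d and cortical excitatory-like nuclei for Pde1a.

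Pde7b, a cyclic AMP-selective enzyme, stood in striatal-like nuclei at 1253 and 1305 CPM (No_index_frozen), 1605 and 1552 (Index_frozen), 1295 and 1282 (No_index_fresh) and 2026 (Index_fresh). The 3 preindexed libraries were the highest. Its mean of 1474 ± 281 CPM was 6.14-fold that of cortical excitatory-like nuclei (240 ± 50.5) and was followed by thalamic-like nuclei at 656 ± 87.6. Pde1b, a calcium- and calmodulin-activated enzyme, ranged from 302 to 364 CPM over the 7 striatal libraries, with a mean of 330 ± 21.8 against 34.5 ± 5.53 in cortical excitatory-like and 87.8 ± 15.9 in dentate granule-like nuclei. Pde1c, of the same family, stood at 411 to 483 CPM in striatal-like nuclei (449 ± 24.8) and at 8.73 to 46.9 in cortical excitatory-like nuclei, a 21.0-fold ratio of means. It was not highest there, since cerebellar granule-like nuclei held 612 ± 114 CPM (n = 4), a range that overlapped the striatal one.

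Long genes may collect more random-primed fragments, which was not tested here, so genes were compared only per kilobase of genomic span. In striatal-like nuclei Pde10a (span 461 kb) and Pde1b (27.0 kb) then stood level, at 12.2 CPM per kb each. Pde7b followed at 4.51, Pde8b at 2.99, Pde4b at 2.51, Pde4a at 2.45, Pde1c at 0.90, Pde1a at 0.87 and Pde4d at 0.33 CPM per kb. This order rests on the full annotated span of each gene. A gene transcribed from an inner start would have a shorter span and a higher value, and the start used was not measured. The study describes its UFI counts as strand-specific, and how a read in 2 genes of the same strand was counted is not given in the sources used here. By the annotation, the 3 genes that overlap Pde10a and the 2 that overlap Pde8b are all antisense, Pde4d overlaps 5 genes, 2 of them antisense, Pde7b 2, 1 of them antisense, and Pde1c 1 on its own strand. Pde1a, Pde1b, Pde4a and Pde4b overlap none.

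Annotated start regions of Pde10a, Pde1b and Pde1c are shown to give their sequence, and which start is used in striatal-like nuclei was not measured. Each window is the 250 bases before a RefSeq start on GRCm38.p6, and for each gene the most upstream one that no annotated exon overlaps is printed. The Pde10a window is chr17:8849735-8849984 (plus strand), the Pde1b window chr15:103502784-103503033 (plus strand), which ends just before the annotated gene, and the Pde1c window chr6:56369635-56369884 (minus strand, printed 5′ to 3′ along the gene). The Pde10a and Pde1c windows lie inside the annotated genes (chr17:8525372-8986648 and chr6:56069804-56569103), downstream of the outermost annotated starts. For Pde7b only 1 window was listed, and an annotated exon overlaps it. Capitals mark matches, on either strand, to the cyclic AMP response element TGACGTCA, its shortened form TGACG, the GC box GGGCGG and the forkhead word TGTTTAC.
Pde10a: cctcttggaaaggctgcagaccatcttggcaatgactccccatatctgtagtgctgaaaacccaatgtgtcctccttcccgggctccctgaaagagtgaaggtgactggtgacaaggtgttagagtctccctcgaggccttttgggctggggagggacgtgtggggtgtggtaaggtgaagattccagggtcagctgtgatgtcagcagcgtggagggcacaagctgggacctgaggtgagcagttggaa
Pde1b: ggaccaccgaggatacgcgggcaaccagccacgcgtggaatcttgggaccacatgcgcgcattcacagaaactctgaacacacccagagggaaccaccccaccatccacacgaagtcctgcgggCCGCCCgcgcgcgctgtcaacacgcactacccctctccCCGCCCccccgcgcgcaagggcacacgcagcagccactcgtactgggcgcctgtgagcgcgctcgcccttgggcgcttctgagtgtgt
Pde1c: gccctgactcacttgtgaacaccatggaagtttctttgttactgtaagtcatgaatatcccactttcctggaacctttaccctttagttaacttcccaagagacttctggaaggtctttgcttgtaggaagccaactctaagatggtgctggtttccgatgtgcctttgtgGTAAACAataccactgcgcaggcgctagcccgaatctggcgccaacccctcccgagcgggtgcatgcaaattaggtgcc
The Pde10a window printed held none of the 4 words, that of Pde1b held 2 GC boxes and that of Pde1c 1 forkhead word. Of their other windows without an exon, that of Pde1b held 1 forkhead word and that of Pde1c no match, and a further Pde10a window, which overlaps an exon, held 1 GC box. The full element was in 0 of the 31 windows of the 10 listed genes and in 1.55% of 32851 windows of all genes. The shortened form, which the full element contains, was in 3 of 31 windows and in 17.8% of all, the GC box in 7 of 31 and in 32.7%, and the forkhead word in 2 of 31 and in 3.17%. A match is a run of letters and not a measured site.

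**Figure D2:**
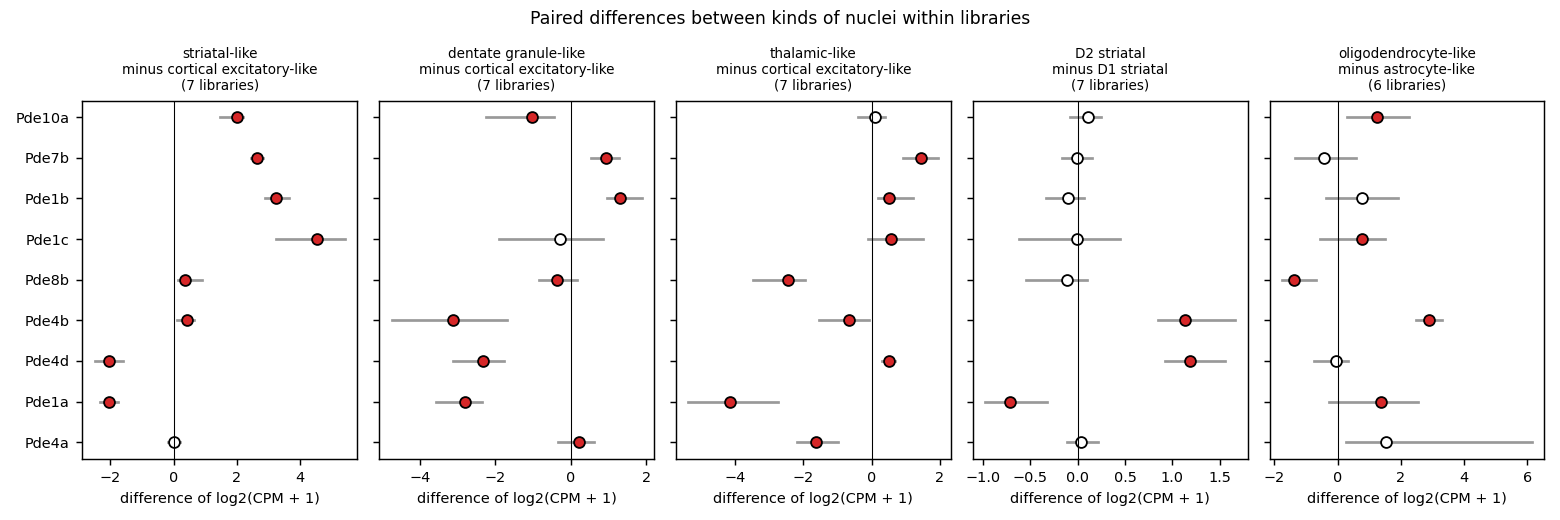
Differences in level between kinds of nuclei (log2 of CPM + 1) for each phosphodiesterase, with the mean over libraries as a point and the lowest to highest library as a grey line. Points are filled where the edgeR fit over all genes gave an adjusted p of at most 0.05, and in the striatal against cortical panel Pde10a, Pde7b, Pde1b, Pde1c, Pde8b and Pde4b lie above 0 and Pde1a and Pde4d below 0 over their whole range.

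Within libraries, striatal-like nuclei exceeded cortical excitatory-like nuclei in all 7 for 6 genes and fell below them in all 7 for 2 genes. Of all 7509 genes compared, 23.4% were higher and 24.9% lower in every library, so same-sign differences between these kinds were common. The differences on the log2(CPM + 1) scale were 4.53 ± 0.78 (SD) for Pde1c, 3.23 ± 0.29 for Pde1b, 2.62 ± 0.13 for Pde7b, 2.02 ± 0.26 for Pde10a, 0.43 ± 0.17 for Pde4b and 0.37 ± 0.25 for Pde8b. Pde1a was lower by -2.03 ± 0.19 and Pde4d by -2.04 ± 0.34. Each of the 8 had an exact two-sided sign-flip p of 0.0156, the smallest that 7 libraries allow, and an adjusted p of 0.0324 by Benjamini-Hochberg over all 7509 genes. Pde4a differed by 0.01 ± 0.14 (exact p = 0.859) and was higher in 3 of 7 libraries. A fit across genes with the library as a block (edgeR quasi-likelihood), added after the data had been seen, also called these 8 genes, where it called 53.4% of 11036 genes. Without the smaller of the 2 striatal-like clusters, likewise an alternative chosen after seeing the data, Pde4b differed by 0.25, when it no longer passed the planned test.

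That smaller cluster held 163 nuclei and was led by Tshz1, Foxp2 and Drd3. It differed from the larger one (1270 nuclei, led by Drd2, Rgs9 and Adora2a) in several of the members. Pde10a stood at 2498 ± 444 CPM (n = 5) in it and at 5970 ± 591 (n = 7) in the larger cluster. Pde7b stood at 549 ± 93.7 against 1572 ± 310 and Pde1c at 49.2 ± 45.3 against 492 ± 51.4. Pde4b and Pde1a ran the other way, at 2458 ± 571 against 1158 ± 138 CPM and at 771 ± 177 against 202 ± 34.0. These clusters were found in the same nuclei, and the values are descriptions without a test.

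Nuclei of the direct and indirect striatal pathways were separated by their D1 list (Drd1, Tac1, Isl1, Pdyn, Eya1) or D2 list (Drd2, Adora2a, Penk, Gpr6, Sp9), which gave 421 D1 and 568 D2 nuclei and left 444 ungated. Both gated groups drew on both striatal-like clusters, which differed in Pde4b and Pde1a. The share of the smaller cluster in each group is not given here. The cyclic AMP-selective enzymes Pde4b and Pde4d were higher in D2 nuclei. Pde4b stood at 1676 to 2045 CPM in D2 nuclei and at 530 to 1062 in D1 nuclei, with no overlap between the groups and a 2.16-fold ratio of means. Pde4d stood at 441 to 886 CPM in D2 and at 149 to 434 in D1 nuclei, again without overlap. How many of all genes had no overlap between D2 and D1 nuclei was not counted. Pde1a was lower in D2 nuclei, at 122 to 200 CPM against 241 to 315 in D1 nuclei.

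On the log2(CPM + 1) scale the D2 minus D1 differences were 1.14 ± 0.27 for Pde4b, 1.19 ± 0.22 for Pde4d and -0.71 ± 0.20 for Pde1a, each of 1 sign in 7 of 7 libraries (exact p = 0.0156). Of 7302 genes, 2.82% were higher and 4.05% lower in D2 nuclei in every library. Over all those genes the adjusted sign-flip p of the 3 was 0.227, the lowest value reached by any gene at this number of libraries. The edgeR fit with the library as a block gave adjusted p = 8.86e-09 for Pde4b, 3.68e-09 for Pde4d and 1.48e-05 for Pde1a, and called 6.11% of 7315 genes. Pde10a was higher in D2 nuclei in 6 of 7 libraries, by 0.11 ± 0.10 (exact p = 0.0312), but with an adjusted p of 0.292 in the edgeR fit. Pde1b, Pde1c, Pde4a, Pde7b and Pde8b differed by -0.12 to 0.03 and did not pass either test. Gated D1 nuclei were deeper (median 14693 UFIs) than D2 nuclei (11504), and the part of depth in these differences was not tested.

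Of the named kinds, cortical excitatory-like nuclei held the highest level of Pde1a, a calcium- and calmodulin-activated enzyme, at 898 to 1143 CPM over 7 libraries (mean 1047 ± 86.0). The next kind, kidney-rich nuclei, held 591 ± 19.8 (n = 2), and the ranges did not overlap. The share of all genes with such a gap was not counted. Pde1a per kilobase was 3.55 CPM in cortical excitatory-like nuclei and 0.87 in striatal-like nuclei. Pde4d, a cyclic AMP-specific enzyme with a very long gene of 1504 kb, stood at 1878 to 2103 CPM (2007 ± 72.0), below thalamic-like nuclei and above striatal-like nuclei (496 ± 107). Pde8b, a high-affinity cyclic AMP enzyme, stood at 528 ± 68.4 CPM, with the Index_fresh library lowest at 385.

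**Figure D3:**
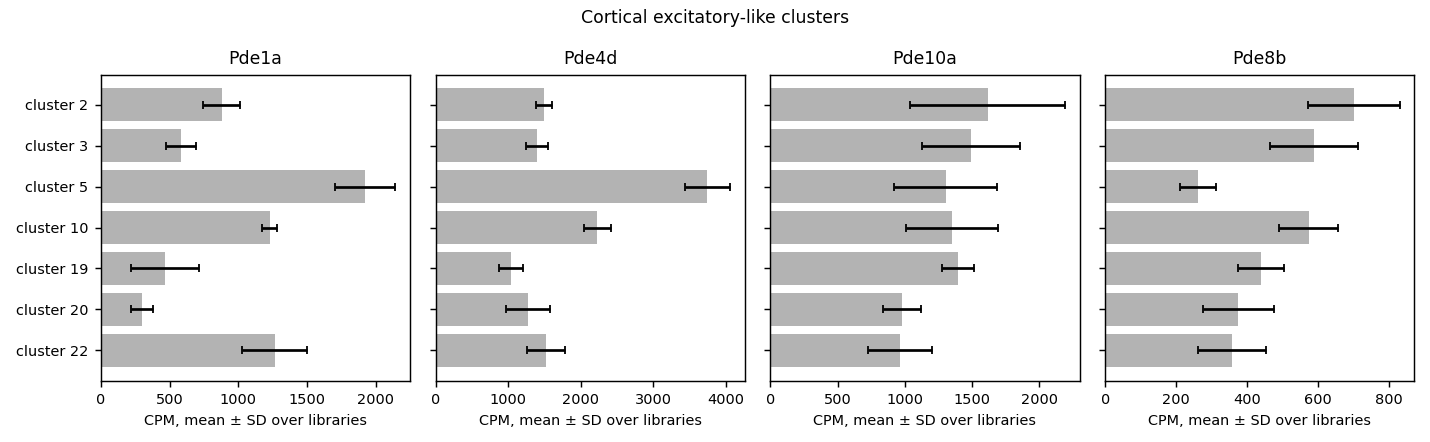
Level of Pde1a, Pde4d, Pde10a and Pde8b (CPM) in the 7 cortical excitatory-like clusters, as bars of the mean with the SD over libraries with at least 10 nuclei of the cluster. Cluster 5, the Hs3st4 cluster, holds the highest Pde1a (1920) and Pde4d (3745) and the lowest Pde8b (262).

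Within the cortical excitatory-like kind, the enzymes differed between clusters. A cluster of 712 nuclei with Hs3st4 and Ctgf among its leading genes held Pde1a at 1920 ± 219 CPM and Pde4d at 3745 ± 313, the highest of the 7 cortical clusters for both, together with the lowest Pde8b at 262 ± 49.7. A cluster of 822 nuclei led by Igfn1 and Nectin3 held Pde7b at 492 ± 51.0 CPM, against 40.1 to 231 in the other 6, and the lowest Pde4a at 44.6 ± 14.1. Pde1a was lowest, at 299 ± 79.2 CPM (n = 4), in the smaller of the 2 Tshz2-led clusters. Pde10a ranged from 962 to 1614 CPM and Pde1b from 12.8 to 40.5 across all 7 clusters. These differences between clusters are descriptions.

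In thalamic-like nuclei Pde4d was high and 4 other members were low against cortical excitatory-like nuclei. Pde4d stood at 2591 to 3291 CPM, above every cortical library, and differed by 0.50 ± 0.13 on the log2(CPM + 1) scale. Pde7b differed by 1.46 ± 0.37 and Pde1b by 0.52 ± 0.35. The lower members were Pde1a (26.5 to 145 CPM, difference -4.16 ± 0.85), Pde8b (-2.44 ± 0.55), Pde4a (-1.64 ± 0.47) and Pde4b (-0.66 ± 0.53). These 3 higher and 4 lower genes kept 1 sign in all 7 libraries (exact p = 0.0156, adjusted p = 0.0418 over 7652 genes), where 20.2% of genes were higher and 17.2% lower in every library. Pde10a differed by 0.09 ± 0.28 (exact p = 0.391). The edgeR fit also called Pde1c, at 0.56 (SE 0.17, adjusted p = 0.0127), making 8 of 9 members where 42.5% of 9683 genes were called.

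Dentate granule-like nuclei, the granule cells of the hippocampal dentate gyrus, held little Pde4b, Pde4d and Pde1a. Pde4b stood at 32.8 to 307 CPM against 906 to 1036 in cortical excitatory-like nuclei, and it was lower in the 3 preindexed libraries (32.8 to 50.2) than in the 4 others (150 to 307). This split by primer was not tested in dentate granule-like nuclei, and how many of all genes split likewise was not counted. Pde4d stood at 225 to 593 CPM and Pde1a at 94.2 to 223. The differences were -3.13 ± 1.27 for Pde4b, -2.81 ± 0.47 for Pde1a, -2.32 ± 0.58 for Pde4d and -1.03 ± 0.57 for Pde10a, while Pde1b (1.32 ± 0.33) and Pde7b (0.93 ± 0.27) were higher. These 6 kept 1 sign in all 7 libraries (exact p = 0.0156, adjusted p = 0.0382 over 7569 genes), where 20.7% of genes were higher and 20.2% lower in every library. Pde8b was lower in 6 of 7 libraries (-0.36 ± 0.30, exact p = 0.0312). The edgeR fit called 8 of the 9 members, these 7 and Pde4a (0.26, adjusted p = 0.0237), and 49.0% of 9171 genes.

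Oligodendrocyte-like nuclei, the myelin-forming glia, held the highest Pde4b of the named kinds. It stood at 3663 and 3130 CPM (No_index_frozen), 6969 and 7569 (Index_frozen), 4515 and 3600 (No_index_fresh) and 4894 (Index_fresh). The lowest of these lay above every library of the next kind, cerebellar granule-like nuclei (2107 ± 251 CPM, n = 4), and the 2 Index_frozen libraries lay above the rest. How many of all genes stood apart in either way was not counted. The mean was 4906 ± 1727 CPM, or 9.44 CPM per kb. OPC-like nuclei, oligodendrocyte precursors, followed at 1696 ± 120 (n = 5) and astrocyte-like nuclei held 659 ± 104 (n = 6).

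Astrocyte-like nuclei held the highest Pde8b among named kinds with at least 2 libraries. It stood at 428 to 963 CPM over the 6 libraries with at least 10 such nuclei (mean 740 ± 200), a range that overlapped that of striatal-like nuclei (676 ± 27.8). Endothelial-like nuclei, counted in 1 library only, held Pde8b at 910 CPM, above the astrocyte mean and within the astrocyte range. In the 6 libraries with both glial kinds, Pde4b was higher in oligodendrocyte-like nuclei by 2.89 ± 0.31 on the log2(CPM + 1) scale and Pde10a by 1.23 ± 0.65, and Pde8b was lower by -1.38 ± 0.39. Pde4a was also higher in 6 of 6 libraries, with 1 astrocyte library at 0. These 4 had an exact p of 0.0312, the smallest that 6 libraries allow, and an adjusted p of 0.119 over 8456 genes, where 12.9% of genes were higher and 13.3% lower in every library. The edgeR fit called Pde4b, Pde8b, Pde10a, Pde1a (1.28, adjusted p = 0.00695) and Pde1c (0.75, adjusted p = 0.0448), but not Pde4a (adjusted p = 0.154), and 31.4% of 5670 genes.

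Transcripts of the neuron marker list were also counted in the glial nuclei, and their origin was not tested. The 10 neuron markers summed to 5000 to 11177 CPM in oligodendrocyte-like nuclei, to 2906 to 8998 in astrocyte-like nuclei and to 16323 to 18057 in striatal-like nuclei, with none of the 10 at 0 in these kinds. The 12 striatal markers summed to 645 to 1772 CPM in oligodendrocyte-like and to 300 to 452 in astrocyte-like nuclei. Their part in the glial Pde10a levels was not tested. The 9 oligodendrocyte markers summed to 100 to 191 CPM in striatal-like nuclei.

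Kidney-rich nuclei, present in 2 libraries of frozen brain, held the highest Pde4d of the named kinds, at 4951 and 4684 CPM, or 3.20 CPM per kb. Neuron-like nuclei of the same libraries held a mean of 1367 CPM, a 3.52-fold ratio. Pde1a stood at 605 and 577 CPM in kidney-rich nuclei, Pde7b at 284 and 309, Pde4b at 159 and 176 and Pde8b at 154 and 125. Pde10a stood at 72.9 and 153 CPM and Pde1b at 2.84 and 0.42. Only Pde4d was higher than in neuron-like nuclei in both libraries, by 1.82 ± 0.05 on the log2(CPM + 1) scale, and the other 8 were lower in both. Their mean differences ran from -0.24 for Pde1a to -5.23 for Pde1b. How many of all genes kept 1 sign in both libraries was not counted. With 2 libraries no test was made, since its smallest p would be 0.5. The 12 kidney markers summed to 13903 to 14268 CPM in these nuclei and the neuron markers to 179 to 260, with 1 of the 10 at 0.

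Cerebellar granule-like nuclei, found in the 4 libraries without preindex, held Pde1c at 460 to 713 CPM, Pde4b at 1864 to 2437 and Pde4d at 2602 to 3150. Pde7b (60.9 ± 42.2 CPM), Pde1a (44.8 ± 17.0) and Pde8b (47.0 ± 30.8) were low. Interneuron-like nuclei held Pde10a at 1367 ± 251 CPM and Pde4d at 1608 ± 291, and little Pde7b (92.4 ± 13.4). For Pde4a, a cyclic AMP-specific enzyme, dentate granule-like nuclei at 137 ± 29.1, striatal-like at 116 ± 14.4 and cortical excitatory-like at 116 ± 16.7 CPM overlapped, and interneuron-like nuclei at 62.3 ± 9.97 lay below all cortical libraries.

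Shares of nuclei with at least 1 UFI were compared after thinning each nucleus to 3000 UFIs, which left out 1 interneuron-like nucleus and none of the other kinds named here. Pde10a was found in 98.3% ± 1.81 of striatal-like nuclei, 91.1% ± 2.09 of cortical excitatory-like nuclei and 15.9% ± 2.07 of kidney-rich nuclei. The origin of the Pde10a UFIs in kidney-rich nuclei was not tested. Unthinned shares were 99.6%, 98.4% and 25.3%. Pde1b was found in 59.6% ± 5.93 of striatal-like, 8.85% ± 1.45 of cortical excitatory-like and 0.79% ± 0.45 of kidney-rich nuclei (89.9%, 39.3% and 1.35% unthinned). Pde4b was found in 99.2% ± 1.58 of oligodendrocyte-like nuclei (100% unthinned) and 27.6% ± 0.80 of kidney-rich nuclei (52.8%). Pde4d was found in 98.3% ± 0.87 of kidney-rich nuclei (99.4%) and 53.6% ± 8.43 of striatal-like nuclei (79.6%). Median depths were 11601 UFIs in striatal-like, 13289 in cortical excitatory-like, 11765 in oligodendrocyte-like and 8761 in kidney-rich nuclei.

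Other genes of the pathway were read from lists of further phosphodiesterases, cyclases, receivers of cyclic nucleotides and striatal G protein partners. Between striatal-like and cortical excitatory-like nuclei, 23.4% of 7509 genes were higher and 24.9% lower in every library. Of the 9 partners, all tested, 5 were higher and 2 lower in striatal-like than in cortical excitatory-like nuclei in every library, with a median difference of 1.46 on the log2(CPM + 1) scale against -0.01 over all genes. The higher ones were Gnal, the stimulatory G protein subunit of striatum (680 ± 36.1 against 86.4 ± 9.15 CPM), Gng7 (537 ± 37.2 against 16.1 ± 3.51), Ppp1r1b, which encodes DARPP-32 (133 ± 7.17 against 5.87 ± 1.00), Rgs9 (1198 ± 69.3 against 29.7 ± 3.59) and Gnb5. Rgs9, Ppp1r1b and Gng7 are also among the markers that named the striatal kind, so their direction is no independent result. Of 11 cyclases tested, 4 were higher and 6 lower, among them Adcy5, the main adenylyl cyclase of striatum and also a marker (2418 ± 181 against 119 ± 15.7), and Gucy1a3, a subunit of the nitric oxide receptor (145 ± 10.9 against 44.8 ± 7.03). Of 4 other phosphodiesterases tested, Pde9a, a cyclic GMP enzyme (93.7 ± 8.92 against 46.2 ± 8.04), and Pde11a were higher and Pde3b and Pde7a lower. Of 11 receivers, 1 was higher (Prkar2b) and 5 were lower.

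Between D2 and D1 nuclei, where 2.82% of all genes were higher and 4.05% lower in every library, Gucy1a3 (217 ± 10.8 against 97.5 ± 23.5 CPM) and Gucy1b3 (142 ± 15.2 against 98.0 ± 18.7) were higher and Adcy9 lower of 10 cyclases, none of the 4 other phosphodiesterases kept 1 sign in 7 of 7 libraries, Prkg1 was lower of 11 receivers, and Gng7 was higher of the 9 partners. In thalamic-like against cortical excitatory-like nuclei, 20.2% of all genes were higher and 17.2% lower in every library. Of 4 other phosphodiesterases, Pde9a was higher there (148 ± 27.2 against 46.2 ± 8.04 CPM).

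The genes most like each member over the 10 kinds with at least 2 libraries were ranked by Pearson r of log2(CPM + 1) among 8614 genes, as a description. The kinds share libraries and depth. Pde10a was most like Gnb5 (r = 0.97), Myh10 (0.95) and Car11 (0.95). Pde1b was most like Traip (0.97), Pde4a like Chrm1 (0.97), Pde4d like Iqgap1 (0.96), Pde1a like Fhl2 (0.93) and Pde8b like Ccnd2 (0.92). Pde1c was most like Kctd8 (0.90), Pde7b like 6030458C11Rik (0.87) and Pde4b like Ctnna3 (0.86). These are the highest of 8614 values over only 10 kinds, and the r that unrelated genes would reach by such a choice was not computed. Among the members themselves the highest r was 0.82 for Pde1b with Pde4a and the lowest -0.80 for Pde1b with Pde4d.

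Storage and primer were compared over the 7 libraries, with both as terms of 1 edgeR fit across all genes. In sums over all nuclei, fewer nuclei of a kind and less RNA per nucleus cannot be told apart. The same holds in sums over striatal-like or cortical excitatory-like nuclei, whose clusters differed in their levels of Pde10a and Pde7b. Shares of these clusters by storage or primer were not compared. None of the 9 members passed an adjusted p of 0.05 for frozen against fresh brain, in all nuclei (0.207% of 19299 genes called), striatal-like nuclei (0.542% of 12372) or cortical excitatory-like nuclei (0.282% of 14539). At an unadjusted p under 0.05 there were 2 members in all nuclei (Pde1c and Pde4a), 1 in striatal-like nuclei (Pde4a) and 2 in cortical excitatory-like nuclei (Pde1c and Pde4a), beside 2901 of 19299, 921 of 12372 and 1486 of 14539 genes in all. DESeq2 called 1, 0 and 0 members in the same sums, beside 323, 45 and 49 genes in all. In all nuclei Pde4a stood at 81.3 to 92.9 scaled CPM in frozen and at 99.9 to 121 in fresh libraries, without overlap, with a frozen minus fresh log2 difference of -0.34 (SE 0.08, adjusted p = 0.144). How many of all genes had no overlap by storage was not counted. Pde10a differed by -0.06 (SE 0.12, adjusted p = 0.864), and without the Index_fresh library by 0.20 (adjusted p = 0.0177). In that setting 3 members passed (Pde10a, Pde1c and Pde7b), beside 840 genes in all, against 40 genes with all 7 libraries.

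**Figure D4:**
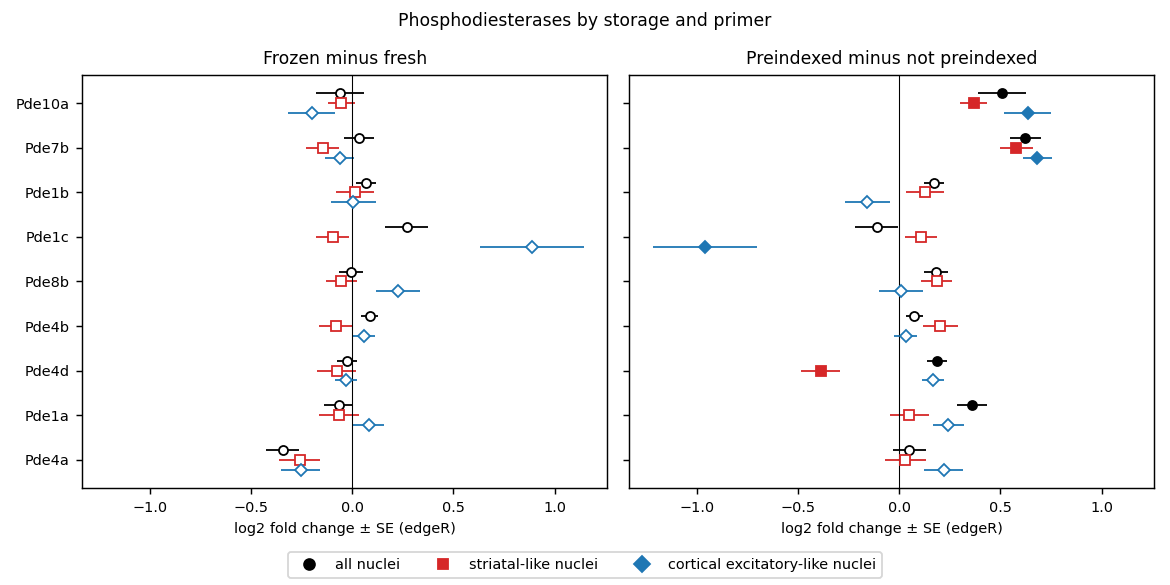
Differences by storage (left) and primer (right) for each phosphodiesterase, as log2 fold change with its SE from edgeR, in all nuclei (circles), striatal-like nuclei (squares) and cortical excitatory-like nuclei (diamonds). Filled symbols have an adjusted p of at most 0.05: there are none by storage, and by primer Pde10a and Pde7b are filled and above 0 in all 3 sums.

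Preindexed libraries held more Pde7b and Pde10a. In all nuclei Pde7b stood at 435 to 495 scaled CPM in the 3 preindexed libraries and at 275 to 328 in the 4 others, a log2 difference of 0.62 (SE 0.08, edgeR adjusted p = 0.00357). It was also higher in striatal-like nuclei (0.58, SE 0.08, adjusted p = 7.11e-04) and in cortical excitatory-like nuclei (0.68, SE 0.07, adjusted p = 8.47e-05), with no overlap in any of the 3. Pde10a stood at 1834 to 2518 against 1352 to 1616 in all nuclei (0.51, SE 0.12, adjusted p = 0.0293), at 6347 to 6742 against 4848 to 5455 in striatal-like nuclei (0.37, SE 0.06, adjusted p = 0.00392) and at 1480 to 2379 against 1069 to 1240 in cortical excitatory-like nuclei (0.63, SE 0.12, adjusted p = 0.00362), again without overlap. Pde1b in all nuclei, Pde8b in striatal-like and Pde4d in cortical excitatory-like nuclei also did not overlap by primer, but did not pass. The share of all genes without overlap was not counted. Median UFIs per nucleus were 9011.5 to 14016.5 in preindexed libraries and 10187 to 27543 in the others. The part of depth in the primer differences was not tested.

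In all nuclei 4 members were higher with preindex (Pde10a, Pde7b, Pde1a by 0.36 and Pde4d by 0.18) where 15.8% of genes were called. Without the Index_fresh library Pde10a differed by 0.24 in all nuclei (adjusted p = 0.000835) and by 0.30 in cortical excitatory-like nuclei (adjusted p = 0.00715), and Pde7b in striatal-like nuclei by 0.39 (adjusted p = 0.0370). The Pde10a call in all nuclei rested on several libraries, its adjusted p being 0.0626 without No_index_frozen replicate 1, 0.0681 without Index_frozen replicate 2, 0.0793 without No_index_fresh replicate 1 and 0.0625 without No_index_fresh replicate 2. Pde4d lost its call on leaving out any of 6 libraries (adjusted p 0.0647 to 0.163), and also without kidney-rich and liver-rich nuclei, when it differed by 0.10. In that setting Pde1b, Pde4b and Pde8b passed, and 3670 genes in all were called. Pde1a lost its call without Index_frozen replicate 2 or No_index_fresh replicate 1 (adjusted p = 0.0760 and 0.0508).

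In striatal-like nuclei 3 members passed by primer (4.00% of genes called), Pde10a and Pde7b higher and Pde4d lower, at 376 to 478 against 482 to 599 scaled CPM (-0.39, SE 0.10, adjusted p = 0.0306). Pde4d thus differed from 0 in opposite directions in all nuclei and in striatal-like nuclei, and the difference between those was not tested. Pde4d lost this call on leaving out No_index_frozen replicate 1 or 2, Index_frozen replicate 1 or 2, or No_index_fresh replicate 2 (adjusted p 0.0577 to 0.160), and Pde10a on leaving out Index_fresh replicate 1 (0.0761). In cortical excitatory-like nuclei 3 members passed (10.2% of genes called), Pde10a and Pde7b higher and Pde1c lower. Pde1c stood at 9.42 to 18.1 against 12.9 to 45.4 scaled CPM, with overlap (-0.96, SE 0.26, adjusted p = 0.0310), and lost its call without any 1 of the 4 frozen libraries (0.0636 to 0.171).

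Of the 9 partners, 4 were higher and 2 lower by primer in all nuclei, where 15.8% of genes were called (Rgs9 0.52, Gng7 0.38, Ppp1r1b 0.35, and Gnal 0.25 among the higher, and Calm3 -0.60 among the lower, on the log2 scale). Within kinds none of the 9 passed as higher, while 1 passed as lower in striatal-like and 2 in cortical excitatory-like nuclei. Of all genes, 4.00% and 10.2% were called in these kinds. The median log2 difference of the 9 was 0.14 in all nuclei, 0.22 in striatal-like and -0.14 in cortical excitatory-like nuclei. Striatal-like nuclei were 14.0% to 14.7% of the nuclei in the 3 preindexed libraries and 8.60% to 12.9% in the 4 others. Their part in the differences over all nuclei was not tested. By primer in all nuclei, 1 of 18 cyclases was higher (Adcy5, 0.31) and 3 were lower. Of 22 receivers there, 2 were higher and 5 lower, and of 13 other phosphodiesterases Pde7a was higher (0.17). In striatal-like nuclei 2 of 14 cyclases were lower, 1 of 16 receivers was higher, and Pde3a was lower of 8 other phosphodiesterases. In cortical excitatory-like nuclei 2 of 15 cyclases and 4 of 18 receivers were higher, and Pde3a was lower of 9 other phosphodiesterases. By storage, no gene of these 4 lists passed in all nuclei or in cortical excitatory-like nuclei, and Adcy8 was lower in striatal-like nuclei (-1.03, SE 0.22, adjusted p = 0.0378).

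The effect of storage differed between primers for 5 members in all nuclei (16.4% of genes called), for 2 in cortical excitatory-like nuclei (2.43%) and for none in striatal-like nuclei (0.234%). The interaction in all nuclei was -0.63 (SE 0.07) for Pde10a, -0.46 (SE 0.11) for Pde1c, -0.37 (SE 0.08) for Pde4a, -0.36 (SE 0.07) for Pde7b and 0.27 (SE 0.06) for Pde8b. In cortical excitatory-like nuclei it was -0.78 (SE 0.10) for Pde10a and 0.67 (SE 0.10) for Pde8b. Every one of these rests on the single Index_fresh library, which also held the lowest median of UFIs per nucleus (9011.5).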

How the data were processed

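The deposited brain tables hold raw UFI counts per gene and nucleus, 1 table per library. According to the methods, the authors extracted barcodes and UFIs, trimmed the reads, aligned them with STAR, assigned them to genes with featureCounts and counted UFIs with UMI-tools. The submitters' processing notes name GRCm38 and mm10, whereas the paper's text names GRCh38 for this step, and genes were used by symbol. Counts over whole genes include introns, so long genes may collect more UFIs. Intervals and floors for single shares are not given, and all SDs are between libraries.

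All nuclei were kept, no doublet caller was run and no doublets were removed. Counts were normalised to 10000 per nucleus, log-transformed and clustered on the 2000 most variable genes (22 phosphodiesterase genes left out, 40 components, 10 neighbours, Leiden resolution 0.4) in scanpy 1.11.5 with leidenalg 0.10.2, Python 3.11.15, numpy 2.4.6 and scipy 1.17.1. A cluster whose leading genes mixed markers of several kinds was clustered again in the same way with fewer components. All astrocyte-like, cerebellar granule-like and endothelial-like nuclei came from that mixed cluster. Clusters were named from marker lists when at least 50% of the markers were 2-fold above the other clusters, or, for cortical excitatory clusters, at least 3 markers were and defining markers, not all named here, were 1.5-fold above the mean of clusters. This rule was set once a first clustering was known. D1 and D2 nuclei needed 3 UFIs of their own list and 2 times those of the other. The members, lists and tests were chosen with earlier results of these data known.

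UFIs were summed per library and kind with at least 10 nuclei. Kinds were compared within libraries on log2(CPM + 1) with a two-sided exact sign-flip permutation test, against genes of at least 10 CPM. The test planned was adjusted over the members and contrasts (45 tests). Its counts appear only with the alternatives, and the text gives unadjusted p or p adjusted over all genes. Storage and primer were tested with edgeR 4.0.16 in R 4.3.3 (filterByExpr, TMM, quasi-likelihood test, Benjamini-Hochberg over all genes), with DESeq2 1.42.0 as an alternative. Scripts were tested on simulated data. All members are named, with up to 5 pathway genes per comparison by size of change, further pathway genes being named after their values were seen, and the genes most like each member by Pearson r. Promoter windows are from RefSeq (GRCm38.p6), and 10 of 10 symbols matched. The species-mix libraries were not used here.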

Additional observations from a re-analysis of the deposited data

Results flagged for a closer look

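In the frozen libraries Pde4a over all nuclei stood at 92.9 scaled CPM in No_index_frozen replicate 1, against 81.3 to 83.2 in the other 3, and Pde4b in cortical excitatory-like nuclei stood at 1021 scaled CPM in the same library, against 970 to 978 in the other 3. Each was farther from the rest than Dixon's critical value allows. These were 2 of 54 groups of libraries examined, and chance flags about 1 in 20.

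The difference between frozen and fresh brain depended on the primer for Pde10a (-0.63 on the log2 scale), Pde1c (-0.46), Pde4a (-0.37), Pde7b (-0.36) and Pde8b (0.27) over all nuclei, and for Pde10a (-0.78) and Pde8b (0.67) in cortical excitatory-like nuclei, by the interaction term of an edgeR fit across all genes. Fresh brain with preindex has 1 library.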

How the results depend on the processing

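Counts of members past the threshold changed as follows. By storage over all nuclei, where 0 passed, DESeq2 called 1 and the fit with no filter on low counts 2, and with no filter 2 also passed in cortical excitatory-like nuclei. By primer in cortical excitatory-like nuclei, where 3 passed, DESeq2 and the unfiltered fit called 5 each, beside 1187 and 2022 genes in all. Under the planned adjustment over members and contrasts, 8 members differed between striatal-like and cortical excitatory-like nuclei, 7 each in the dentate and thalamic comparisons and 4 each in the D2 and oligodendrocyte comparisons. That adjustment covered the members alone, so no share of all genes stands beside these counts. The smallest possible sign-flip p was reached by 3625 of 7509, 3093 of 7569, 2858 of 7652, 502 of 7302 and 2215 of 8456 genes, in that order of comparisons. Adjusted over all genes, an alternative added after seeing the data, 0 passed for D2 against D1 and 0 for oligodendrocyte-like against astrocyte-like nuclei, where the smallest adjusted p that any gene reached was 0.227 and 0.119. The edgeR fit called 3 and 5 there. With 20 principal components 0 passed in the oligodendrocyte comparison.

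Leaving out 1 library gave 0 to 3 members by storage over all nuclei, 0 to 1 in cortical excitatory-like and 0 to 0 in striatal-like nuclei, and 1 to 6, 2 to 4 and 2 to 3 by primer. Between kinds it gave 0 to 8 (striatal), 0 to 7 (dentate), 0 to 7 (thalamic), 0 to 3 (D2) and 0 to 4 (oligodendrocyte), because with fewer libraries the smallest p doubles. The kidney-rich comparison has no test, and its 9 to 9 members with 1 sign were fixed by its 2 libraries. Every member called between kinds kept its direction.

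Counts over all genes depended on the setting. By storage over all nuclei 40 genes passed, against 323 with DESeq2, 1937 unfiltered, 5 with the replicate block, 0 with the other factor left out and 4 to 840 on leaving out 1 library, the most without Index_fresh replicate 1. By primer over all nuclei 3041 passed, against 4787 unfiltered, 1731 with the block and 1009 to 5668. In striatal-like nuclei 67 passed by storage (193 unfiltered, 14 with the other factor left out, 24 to 83) and 495 by primer (916, 326, 98 to 512). In cortical excitatory-like nuclei 41 passed by storage (394, 0, 19 to 121) and 1486 by primer (864 to 1411 on leaving out 1 library).

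Libraries of 1 replicate number shared only a number, with correlations of deviations from -0.04 to 0.04. With the replicate number as a block, 2 members passed by primer over all nuclei in place of 4. Pde10a (0.50, adjusted p = 0.0713) and Pde4d lost the call there, as did Pde4d in striatal-like nuclei and Pde1c in cortical excitatory-like nuclei.

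These results changed sign, and the cause was not tested. Of them only Pde10a by storage over all nuclei passed the threshold after turning, at 0.20 without Index_fresh replicate 1 (adjusted p = 0.0177). By storage over all nuclei, leaving out the primer term gave 0.0071 for Pde4d and 0.030 for Pde8b, and leaving out kidney-rich and liver-rich nuclei 0.010 for Pde10a and 0.050 for Pde8b. In striatal-like nuclei Pde1b by storage was -0.0075 unfiltered, Pde10a by storage 0.0060 and Pde4a by primer -0.026 with the other factor left out. In cortical excitatory-like nuclei Pde1b by storage was -0.017 unfiltered, -0.017 with the block and -0.049 without the primer term, where Pde7b was 0.061. Pde4a, striatal minus cortical, was -0.11 at Leiden resolution 1.2, -0.0097 with 20 principal components, -0.069 with phosphodiesterases kept and -0.040 without the smaller striatal-like cluster. For D2 minus D1, Pde1c was 0.012 (resolution 1.2), 0.018 (20 components) and 0.010 (edgeR), and Pde7b 0.00080, 0.0011 and 0.012, and 0.026 as a mean over nuclei. Pde4d, oligodendrocyte minus astrocyte, was 0.55 with 20 components and 0.095 as a mean over nuclei, and Pde1c, dentate minus cortical, 0.12 with edgeR.

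On leaving out 1 library, differences that turned by storage over all nuclei spanned Pde10a -0.14 to 0.20, Pde4d -0.063 to 0.0077, Pde7b -0.036 to 0.19, Pde8b -0.11 to 0.030. By storage in striatal-like nuclei they spanned Pde1a -0.13 to 0.0010, Pde1b -0.063 to 0.087, Pde1c -0.13 to 0.0080, Pde4b -0.15 to 0.0086, Pde4d -0.18 to 0.087, Pde7b -0.20 to 0.037, Pde8b -0.072 to 0.020, and in cortical excitatory-like nuclei Pde10a -0.30 to 0.13, Pde1b -0.079 to 0.12, Pde4d -0.053 to 0.0026, Pde8b -0.036 to 0.33. By primer they spanned Pde4a -0.10 to 0.12 over all nuclei, Pde1a -0.027 to 0.12, Pde1c -0.0074 to 0.15, Pde4a -0.085 to 0.085 in striatal-like and Pde4b -0.044 to 0.083, Pde8b -0.076 to 0.26 in cortical excitatory-like nuclei. Between kinds they spanned Pde4a -0.020 to 0.043 (striatal minus cortical), Pde1c -0.080 to 0.097, Pde7b -0.036 to 0.016 (D2 minus D1) and Pde4d -0.12 to 0.092 (oligodendrocyte minus astrocyte). Precision is limited by depth where a member's level in a kind rests on few UFIs.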
